A study of Mus musculus with 12 samples.

Results

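Brain endothelial cells line the capillaries of the brain, and pericytes wrap around them from outside. The 39 genes described here are markers and working parts of these 2 cell types: angiogenic receptors, junction and surface adhesion proteins, barrier transporters, transcription factors, secreted and caveolar proteins, and 3 pericyte genes. They were chosen by symbol, as a list of endothelial identity, junction, transporter and pericyte genes. Earlier results of these data were known when the list was made. Each symbol matched 1 row of the 23382 rows of the count table, and all 39 were among the 15802 genes that passed the filter on low counts. RNA was measured by ribosomal-RNA-depleted, paired-end sequencing of whole mouse hippocampus in 12 libraries, 3 in each of 4 groups. The groups were control mice given vehicle (control vehicle), control mice given Δ9-THC, the main psychoactive compound of cannabis (control THC), aDN-DISC1 mutant mice given vehicle (mutant vehicle) and aDN-DISC1 mutant mice given Δ9-THC (mutant THC). All 4 groups share a C57BL/6 background, and the series title places the THC exposure in adolescence and calls the vulnerability astrocyte-specific. The labels give no genotype entry for the control libraries, which were placed by title, and give no promoter for the mutant transgene and no dose, age, sex or batch. Whether the 3 libraries of a group are 3 mice is given only as a number per group, so the p-values rest on variation between libraries, which may be technical.

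The blood-brain barrier is a property of brain capillaries in which tight junctions close the gaps between endothelial cells and transporters decide what crosses them. Endothelial cells receive signals through the vascular endothelial growth factor (VEGF) receptors and the angiopoietin receptor, and Wnt ligands from glia and neurons keep barrier genes on. Pericytes help to hold the barrier tight and to set capillary tone. Several of the 39 genes are also made elsewhere: Bsg and Tjp1 are widely expressed, Slc2a1 and Ocln are found in other epithelia or glia, and Slco1c1 is also made by choroid plexus epithelium and astrocytes.

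Total expected counts were 33165903 to 41389957 per library. Ttr, the transthyretin gene of the choroid plexus, was at 2857 to 9979 CPM (counts per 1000000, scaled for library composition) in 6 libraries: control THC 2, all 3 mutant vehicle libraries, and mutant THC 1 and 3. It was at 20.1 to 84.4 CPM in the other 6. Drd2, a dopamine receptor gene of striatal neurons, was at 52.1 CPM in mutant THC 3, 4.57 CPM in mutant vehicle 3 and at most 1.62 CPM elsewhere. Disc1 was at 1.42 to 3.04 CPM over the 12 libraries, with group means of 2.25 to 2.54 CPM, so its count does not mark the genotype. The summed level of 8 hippocampal neuron markers was 755 to 828, 819.9 to 973, 642 to 770.3 and 493 to 919 CPM in control vehicle, control THC, mutant vehicle and mutant THC. The labels number the libraries, and vehicle holds 6 to 11 while THC holds 1 to 5 and 12, so this order and the treatment cannot be told apart.

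Per transcript length the 39 genes spanned more than 2 orders of magnitude. On the TPM scale (counts per kilobase of transcript, scaled to a fixed total), the mean over 12 libraries was highest for Bsg, the basigin gene whose product escorts monocarboxylate transporters, at 667 TPM. Ly6c1, a surface marker of brain capillaries, followed at 79.4 TPM. Slco1c1, a thyroid hormone transporter, was at 69.4, the tight junction scaffold gene Tjp1 (ZO-1) at 61.5, and Itm2a, a membrane protein gene enriched in brain endothelium, at 59.3 TPM. Claudin-5 (Cldn5), the main sealing claudin of brain capillaries, was at 47.6 TPM, the glucose transporter gene Slc2a1 (GLUT1) at 51.9, and the pericyte marker Rgs5 at 31.4. The 4 lowest genes all encode transcription factors: Erg at 2.27, Sox17 at 1.9, Foxq1 at 1.26 and Lef1, a nuclear partner of Wnt signalling, at 1.2 TPM. Reads of Ly6c1, Abcb1a and Slco1a4 can be shared with close relatives in their families, so their levels are uncertain.

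The typical spread between libraries of a group was close to that of all genes tested. The within-group SD of log2 CPM had a median of 0.153 over the 39 genes, from 0.040 for Tjp1 to 0.442 for Slco1c1, beside 0.142 over all genes tested. Across all 12 libraries the highest level was 4.81 times the lowest for Klf2, 2.83 times for Slco1c1, 2.65 times for Lef1 and 2.25 times for Vwf, but 1.09 times for Tjp1. The heat map of library values shows these genes against the remaining, paler rows.

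**Figure D1:**
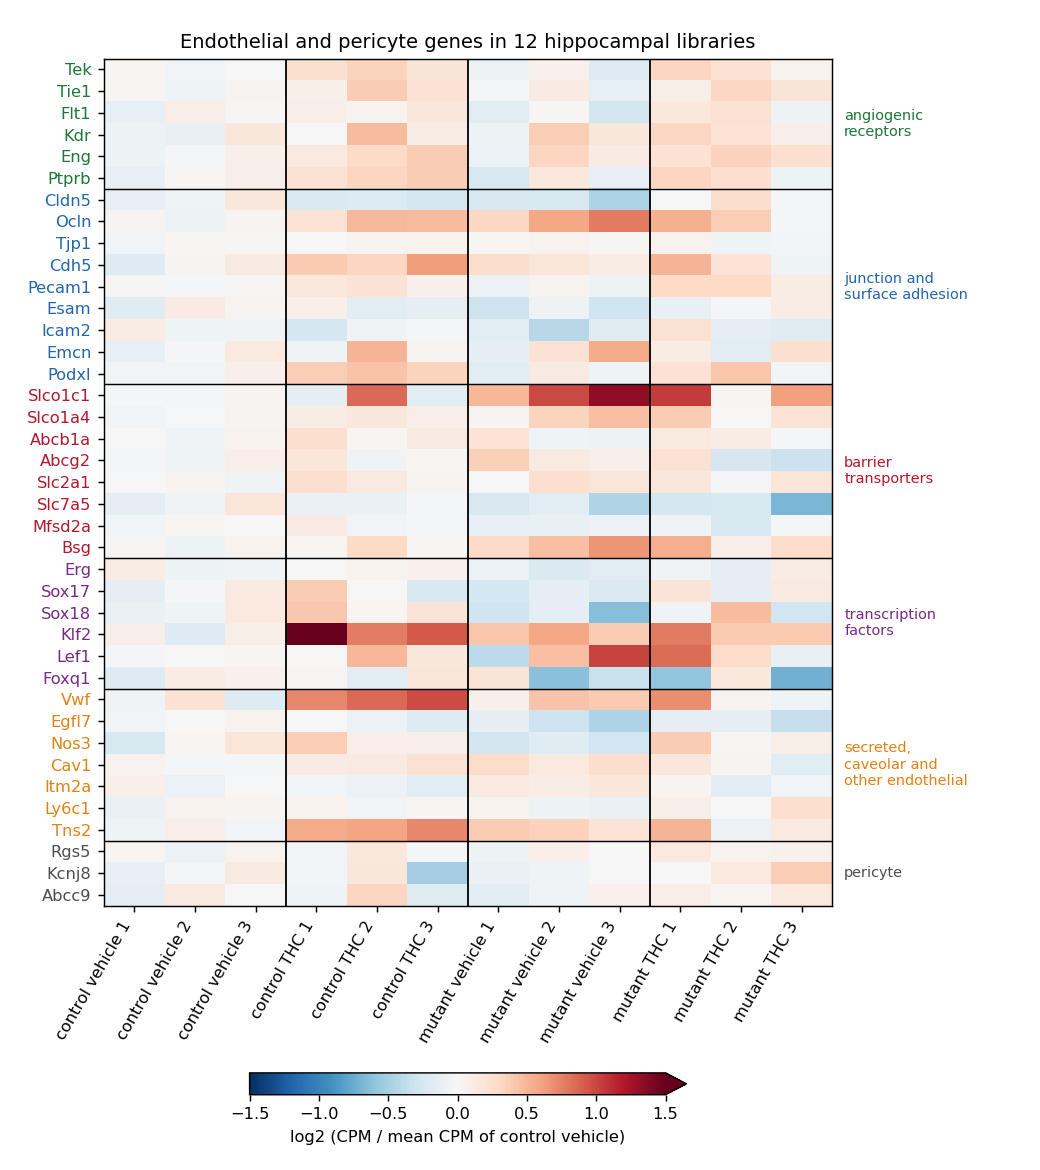
Heat map of the 39 genes (rows, grouped and coloured by role) in the 12 libraries (columns), as log2 of CPM over the mean CPM of control vehicle; red is higher, blue lower, and the scale ends at 1.5. Klf2, Vwf and Tns2 are red in all 3 control THC libraries, and the Slco1c1 row is red in the 6 libraries with 85.5 CPM or more.

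No member passed the threshold, an adjusted p of 0.05 by edgeR's quasi-likelihood test with Benjamini-Hochberg adjustment over all 15802 genes, in any of 7 comparisons. The share of all genes past it was 0% for THC in control mice, for THC in mutants, for the interaction of THC and genotype, and for THC averaged over genotypes. It was 0.00633% for genotype under vehicle, under THC, and averaged over treatments. An alternative tool, DESeq2, called 3 members for THC in control mice, 3 for genotype under vehicle, 1 for the interaction and 3 for genotype averaged over treatments, and 0 elsewhere. In the same order, it called 12, 781, 34 and 785 of all genes in these comparisons. A further alternative, limma-voom, called 0 members in all 7. In these bulk samples, fewer endothelial cells and less RNA per cell cannot be told apart. Log2 fold changes below are given with their standard error (SE) from the edgeR fit, with 3 libraries per group.

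In control mice, levels after THC were above vehicle for most of the genes. The log2 fold change was above 0 for 32 of 39, beside 50.1% of all genes, and the median was 0.14, beside 0.00 over all genes. At an unadjusted p under 0.05 there were 10 members higher and 1 lower, 11 in all, where 7% of all genes were below that p (3.55% higher and 3.45% lower). For 14 members the 3 THC libraries did not overlap the 3 vehicle libraries, 13 higher and 1 lower, where the share over all genes was 16.4% (8.3% higher and 8.07% lower). The 11 members became 7 without control vehicle 2, 6 without control THC 2 and 7 without control THC 3. With 1 library left out at a time they ranged from 6 to 10. The share of all genes in those fits is not given.

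Von Willebrand factor (Vwf), the clotting protein that endothelial cells store and release, was at 16.5, 19.8 and 14.9 CPM in control vehicle 1 to 3 and at 28.2, 30.8 and 33.6 CPM in control THC 1 to 3. The lowest THC library was above the highest vehicle library by a wide margin, and the log2 fold change was 0.85 ± 0.19 (SE, edgeR adjusted p = 0.70). Tns2, which encodes tensin 2, a linker of focal adhesions to actin, showed the same pattern at 6.87, 7.68 and 6.98 CPM in vehicle and 10.6, 10.8 and 11.8 CPM in THC. Its groups were clear of each other too, with 0.62 ± 0.13 (SE, edgeR adjusted p = 0.70). DESeq2 put 12 of all genes past the threshold in this comparison, among them Vwf, Tns2 and Klf2 at adjusted p-values of 0.024, 0.029 and 0.024. Over the 14 alternatives run for this comparison the adjusted p of Vwf, Tns2 and Klf2 ran from 0.024 to 1.

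Klf2, a transcription factor that blood flow induces in endothelium, had the widest range of all members. It was at 3.29, 2.71 and 3.28 CPM in vehicle and 13.04, 5.28 and 5.86 CPM in THC. All 3 THC libraries were above all 3 vehicle libraries, but control THC 1 stood far from the others. The log2 fold change was 1.38 ± 0.30 (SE, edgeR adjusted p = 0.70) and 0.84 without control THC 1. Of the 250 bases before its start, a stretch 118 bases before the start is shown in capitals. It matches a 10-letter pattern used for the MEF2 consensus, with any base allowed in the middle letters. It is shown because flow-induced Klf2 is known to depend on MEF2 factors. The sequence is RefSeq's on GRCm38.p6, chr8:72318812-72319061, plus strand.
Klf2 promoter: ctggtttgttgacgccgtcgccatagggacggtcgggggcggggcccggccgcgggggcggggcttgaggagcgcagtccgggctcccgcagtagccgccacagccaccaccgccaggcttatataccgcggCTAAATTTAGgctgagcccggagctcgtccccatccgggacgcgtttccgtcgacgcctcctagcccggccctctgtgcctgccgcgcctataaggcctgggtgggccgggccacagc
The set of RefSeq promoters searched held 38 promoters for 26 of the 39 genes, and the other 13 had no entry in that set. The MEF2 pattern reads the same on both strands. It was found in 1 of the 38 (2.63%), and in 3.20% of 32851 promoters of the same length. The share of this pattern in the members was thus no higher than in all promoters. With any base allowed in its middle letters, the pattern is looser than the consensus. These shares thus cannot tell how common MEF2 sites are. The ETS core AGGAAG, searched on both strands, was found in 17 of the 38 (44.7%) and in 29.5% of all promoters, and the other ETS form CCGGAA in 2 (5.26%) and in 12.03%. The SOX motif ACAATG was found in 4 (10.5%) and in 10.7%, and the KLF motif CCACCC in 18 (47.4%) and in 28.1%.

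Adhesion proteins of the vessel wall lay next in order. Podxl, a sialomucin on the luminal surface, was at 19.6, 19.7 and 21.4 CPM in vehicle and 26.2, 27.1 and 25.5 CPM in THC, with 0.38 ± 0.11 (SE). VE-cadherin (Cdh5), the adherens junction protein of endothelium, was at 7.06, 8.25 and 8.84 and 10.6, 10.04 and 12.4 CPM, with 0.45 ± 0.14 (SE). For both genes all THC libraries were above all vehicle libraries, and neither passed (edgeR adjusted p = 0.70 for each). Occludin (Ocln), a tight junction strand protein, was also without overlap, at 23.3, 21.6 and 23.3 and 26.1, 31.99 and 31.5 CPM and 0.39 ± 0.15 (SE). Claudin-5 was the 1 member whose THC libraries were all below vehicle: 25.9, 27.02 and 31.6 CPM in vehicle and 24.3, 24.5 and 23.6 CPM in THC, with -0.22 ± 0.10 (SE), and -0.13 without control vehicle 3.

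All 6 angiogenic receptor genes had log2 fold changes above 0 in control mice, with a median of 0.24 and 4 at an unadjusted p under 0.05. Tek, which encodes the angiopoietin receptor TIE2, was at 17.01, 16.2 and 16.8 CPM in vehicle and 19.6, 21.1 and 19.01 CPM in THC, without overlap (0.26 ± 0.09, SE). Its phosphatase gene Ptprb (VE-PTP) was at 0.31 ± 0.12, the TGF-beta co-receptor endoglin (Eng) at 0.28 ± 0.11 and the TIE2 partner Tie1 at 0.23 ± 0.10 (SE). The VEGF receptor genes Kdr and Flt1 were at 0.21 ± 0.14 and 0.11 ± 0.10 (SE). The 8 barrier transporters had a median of 0.12, with 7 above 0 and none at an unadjusted p under 0.05, and the 3 pericyte genes had a median of 0.03.

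Markers of other cells that lie in or beside vessels were summed in the same groups. The summed level of 10 fibroblast and meningeal genes was 229 to 274 CPM in control vehicle and 316 to 321 CPM in control THC, and 9 of 10 were above 0. That of 5 red blood cell genes was 323 to 455 and 395 to 602 CPM, so the groups overlapped, with 5 of 5 above 0. Over all genes 50.1% were above 0. No marker of either list was at 0 in every library. The part of these cells in the result was not tested. Without control THC 2, the only control library with high Ttr, the values were 0.86 for Vwf, 0.64 for Tns2 and 0.22 for Tek. With a choroid plexus score as a covariate they were 0.77, 0.57 and 0.23, while the median over the 39 genes was 0.04 and 7 members had an unadjusted p under 0.05. The share of all genes in that fit is not given.

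In mutant mice the genes lay on both sides of 0 after THC, led by claudin-5, Pecam1 and Tek. The log2 fold change was above 0 for 24 of 39 members, beside 47.5% of all genes, with a median of 0.07, beside -0.01. At an unadjusted p under 0.05 there were 7 members, 5 higher and 2 lower, where 5.73% of all genes were below that p (2.53% higher and 3.2% lower). The groups did not overlap for 5 members, 4 higher and 1 lower, where the share over all genes was 8.47% (4.07% higher and 4.4% lower). The 7 members became 11 without mutant vehicle 2 or without mutant THC 1, and ranged from 5 to 11 with 1 library left out. The share of all genes in those fits is not given.

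Claudin-5 led this comparison. It was at 23.8, 23.9 and 20.4 CPM in mutant vehicle and 28.3, 33.7 and 27.9 CPM in mutant THC. The lowest THC library was above the highest vehicle library, and the log2 fold change was 0.40 ± 0.10 (SE, edgeR adjusted p = 0.81). The 250 bases before its start (RefSeq on GRCm38.p6, chr16:18776597-18776846, plus strand) are shown because claudin-5 was the only member whose groups separated in opposite directions in the 2 genotypes. The capitals mark 2 matches to the CCAAT box, read on the opposite strand as ATTGG, 118 and 88 bases before the start.
Cldn5 promoter: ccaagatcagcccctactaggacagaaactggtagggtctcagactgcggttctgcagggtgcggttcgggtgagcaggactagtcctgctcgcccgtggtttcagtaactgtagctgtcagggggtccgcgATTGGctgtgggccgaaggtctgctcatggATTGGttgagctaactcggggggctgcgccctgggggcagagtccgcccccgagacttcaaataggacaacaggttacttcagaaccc
CCAAT, searched on both strands, was found in 9 of the 38 promoters of the members (23.7%) and in 33.8% of all promoters. The match is a description of the letters only.

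Pecam1, an adhesion protein at endothelial contacts, was at 15.7, 17.3 and 15.8 CPM in mutant vehicle and 20.4, 20.5 and 17.96 CPM in mutant THC, without overlap (0.27 ± 0.07, SE, edgeR adjusted p = 0.81). Nos3, the endothelial nitric oxide synthase gene, was at 5.2, 5.54 and 5.15 and 8.17, 6.37 and 6.69 CPM (0.42 ± 0.14, SE). Its 3 vehicle libraries were all below the 3 THC libraries. Tek was at 15.8, 17.5 and 14.5 and 20.8, 19.5 and 17.3 CPM (0.27 ± 0.09, SE), where the groups touched: mutant THC 3 lay just below mutant vehicle 2. Flt1, the VEGF receptor 1 gene, was at 26.9, 30.7 and 25.1 and 33.6, 35.3 and 28.7 CPM (0.24 ± 0.10, SE), again with an overlap through mutant THC 3. Itm2a was the 1 member with all THC libraries below vehicle, at 44.4, 43.5 and 45.5 and 41.4, 35.7 and 39.2 CPM (-0.20 ± 0.07, SE).

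Of the 6 genes with the smallest p in control mice, Tek was also among the 6 in mutants, and Podxl was at 0.23 ± 0.11 there (SE). Cdh5 was at 9.66, 9.1 and 8.7 CPM in mutant vehicle and 11.4, 9.27 and 7.69 CPM in mutant THC, with the groups overlapping. Its log2 fold change ran from -0.11 to 0.18 with 1 library left out. Vwf, Tns2 and Klf2 had values near 0. Vwf was at 18.04, 22.96 and 22.3 CPM in mutant vehicle and 27.7, 17.6 and 16.4 CPM in mutant THC (-0.04 ± 0.19, SE), with mutant THC 1 above all vehicle libraries and the other 2 below them. Tns2 showed the same split, at 9.35, 9.16 and 8.29 and 10.2, 6.74 and 7.95 CPM (-0.11 ± 0.13, SE). Klf2 was at 4.12, 4.65 and 4.03 and 5.32, 4.06 and 4.08 CPM (0.07 ± 0.30, SE), with the groups overlapping. Of the transporters, 6 of 8 were below 0 with a median of -0.09, led by the efflux pump gene Abcg2 (-0.29 ± 0.13, SE). Fibroblast and meningeal genes were at 382 to 471 CPM in mutant vehicle and 219 to 389.9 CPM in mutant THC, all 10 below 0, and their part in these values was not tested.

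**Figure D2:**
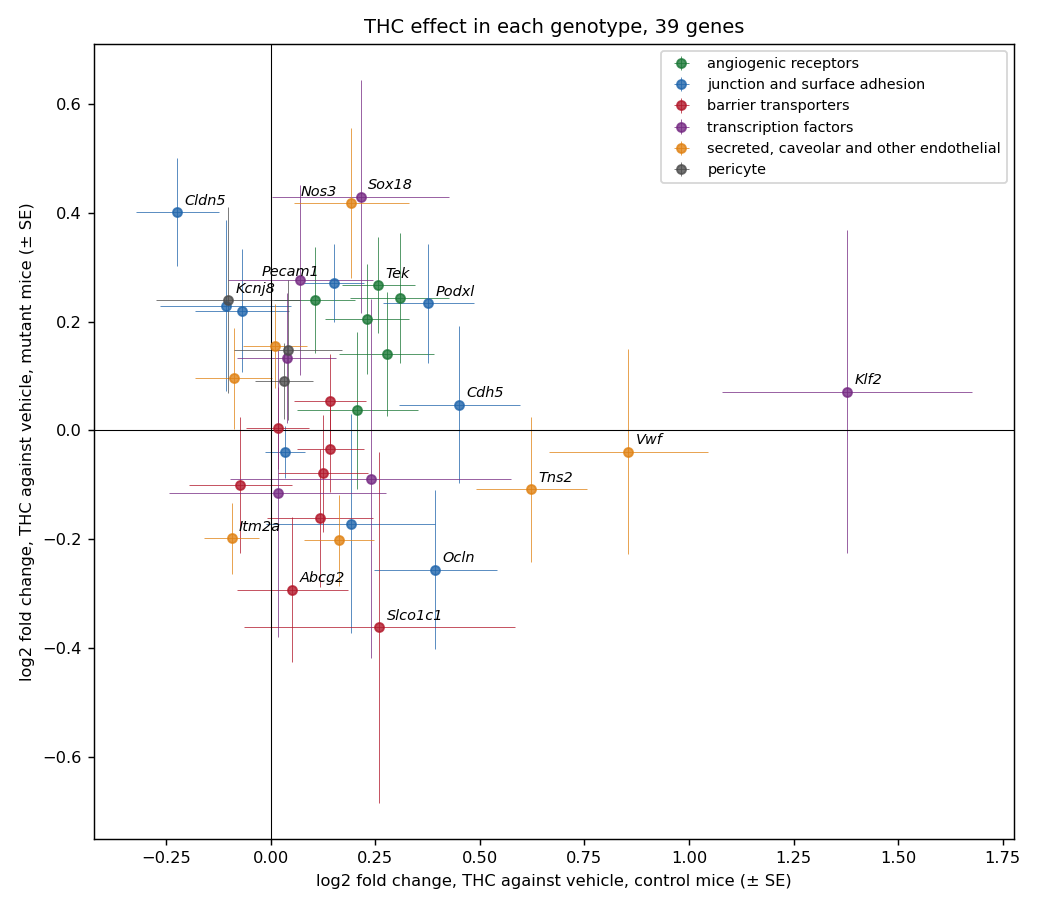
Log2 fold change after THC in control mice (horizontal) and in mutant mice (vertical) for the 39 genes, coloured by role, with bars of 1 SE. Klf2, Vwf and Tns2 lie far to the right near the horizontal line, Cldn5 lies highest at the upper left (-0.22 and 0.40), and all 6 angiogenic receptors lie to the upper right of the crossing of the 0 lines.

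The angiogenic receptors had values of the same sign in both genotypes. In mutants all 6 were above 0 as well, with a median of 0.22, and 5 of 6 when mutant vehicle 1 or mutant THC 1 was left out. All 6 were above 0 in both genotypes under both other scalings of library size. The TMM factors ran only from 0.989 to 1.01, so dropping them could hardly change a sign. The 2 comparisons share no libraries. Over all 39 members, 19 were above 0 in both genotypes (48.7%), 2 below 0 in both, 13 above 0 in controls and below in mutants, and 5 the reverse. Over all genes tested, 23.4% were above 0 in both.

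Averaged over genotypes, 31 of 39 members were above 0, beside 49.2% of all genes, and the median was 0.08. There were 13 at an unadjusted p under 0.05, 12 higher and 1 lower, where 6.05% of all genes were below that p (2.96% higher and 3.09% lower). The smallest p was that of Tek (0.26 ± 0.06, SE, edgeR adjusted p = 0.79), followed by Pecam1 (0.21 ± 0.05) and Podxl (0.31 ± 0.08). Pecam1 was the only member whose THC libraries were all above vehicle in both genotypes, as for 0.424% of all genes, or 0.721% in either direction. Ptprb was at 0.28 ± 0.08, Tie1 at 0.22 ± 0.07, Eng at 0.21 ± 0.08 and Flt1 at 0.17 ± 0.07 (SE). Without control THC 2 and mutant THC 3, an alternative chosen after seeing the data, 14 members had an unadjusted p under 0.05. The share of all genes in that fit is not given.

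The test of the interaction asks whether the THC effect differed between genotypes, with positive values for a larger effect in mutants. The log2 value was above 0 for 15 of 39 members, beside 51.3% of all genes, and the median was -0.07, beside 0.01 over all genes. At an unadjusted p under 0.05 there were 6 members, 1 higher and 5 lower, where 6.59% of all genes were below that p (2.16% higher and 4.42% lower). Claudin-5 had the smallest p, with an interaction of 0.62 ± 0.14 (SE, edgeR adjusted p = 0.54). By DESeq2, which called 34 of all genes, its adjusted p was 0.033 (0.033 to 0.996 over 19 alternatives). It was the only member whose libraries separated downward in controls and upward in mutants, as for 0.228% of all genes, and 0.519% separated in the reverse way, 0.747% in all.

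Tns2 (-0.73 ± 0.19, edgeR adjusted p = 0.59), Vwf (-0.89 ± 0.27), occludin (-0.65 ± 0.21), Klf2 (-1.31 ± 0.42) and Cav1 (-0.36 ± 0.12) made up the other 5 (SE). Klf2 was at -0.76 without control THC 1. Vwf was at -1.17 without mutant THC 1, with an edgeR adjusted p of 0.053 (0.053 to 0.996 over 19 alternatives). Cav1 encodes caveolin-1, the coat protein of the caveolae that brain endothelium holds to a low number. It was at 18.7, 17.8 and 17.7 and 19.7, 19.8 and 21.2 CPM in control vehicle and THC, and at 21.8, 19.96 and 21.6 and 20.3, 18.6 and 16.1 CPM in mutant vehicle and THC. All of its mutant THC libraries but the first were below every mutant vehicle library. The 2 tight junction genes differed in sign: occludin was at 28.2, 33.9 and 38.96 CPM in mutant vehicle and 32.9, 29.3 and 22.5 CPM in mutant THC, with the groups overlapping (-0.26 ± 0.15, SE).

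All 8 barrier transporters had an interaction below 0, with a median of -0.19, and none had an unadjusted p under 0.05. Their values ran from -0.01 for the lipid transporter gene Mfsd2a to -0.62 for Slco1c1. With the choroid plexus score as a covariate 2 of 8 were above 0 and the median was -0.06. The other fits left 0 to 2 above 0. The 10 fibroblast and meningeal genes were all below 0 as well (median -1.34), as were all 14 choroid plexus genes (-4.62), and their part was not tested.

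Levels relative to Pecam1, taken as a ratio of CPM within a library, need no scale for library size. Pecam1 itself was higher after THC without overlap in both genotypes, so the ratio sets each gene against a reference that differed between the groups. In the order control vehicle, control THC, mutant vehicle, mutant THC, the Cldn5 to Pecam1 ratio was 1.7 ± 0.175, 1.31 ± 0.0378, 1.4 ± 0.113 and 1.53 ± 0.13 (SD, n = 3). That of Vwf was 1.03 ± 0.168, 1.68 ± 0.207, 1.3 ± 0.136 and 1.04 ± 0.277, and that of Tns2 was 0.432 ± 0.0345, 0.601 ± 0.0622, 0.551 ± 0.0389 and 0.424 ± 0.0872. That of Tek was 1.002 ± 0.00972, 1.08 ± 0.0159, 0.98 ± 0.0507 and 0.977 ± 0.0366, and that of Rgs5 was 2.96 ± 0.105, 2.72 ± 0.126, 3.02 ± 0.0674 and 2.67 ± 0.19. The Cldn5 ratio overlapped between mutant vehicle (1.29 to 1.52) and mutant THC (1.39 to 1.65), where its CPM did not, and was without overlap in controls. The Tns2 ratio was lower in all mutant THC libraries (0.329 to 0.5) than in mutant vehicle (0.526 to 0.595), where its CPM overlapped. The group means of the Cldn5, Vwf and Tns2 ratios were further apart, as shares of their size, than those of Tek and Rgs5.

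**Figure D3:**
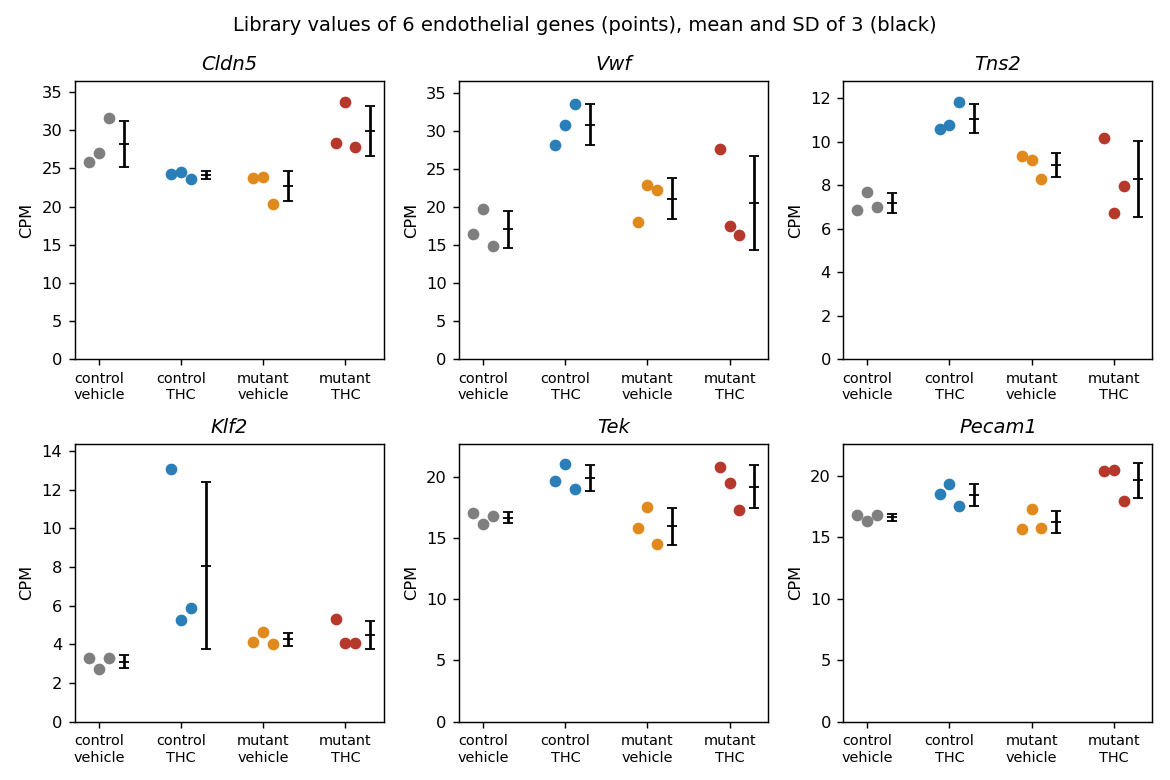
CPM of 6 endothelial genes in each of the 12 libraries (points, coloured by group), with the mean and SD of 3 libraries beside them in black; each axis starts at 0. The Cldn5 mean is lowest in mutant vehicle (20.4 to 23.9 CPM), the Vwf, Tns2 and Klf2 means are highest in control THC, and Tek and Pecam1 differ least between groups among these 6.

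Under vehicle, junction and transporter genes led the comparison of mutant with control mice, with values on both sides of 0. It shares its libraries with the 2 THC comparisons. The log2 fold change was above 0 for 18 of 39 members, beside 48.9% of all genes, with a median of -0.01, beside -0.01. At an unadjusted p under 0.05 there were 9 members, 6 higher and 3 lower, where 17.8% of all genes were below that p (11.2% higher and 6.63% lower). The groups did not overlap for 16 members, 8 higher and 8 lower, where the share over all genes was 28% (15.3% higher and 12.7% lower). The 9 members became 6 without control vehicle 3 and 5 without mutant vehicle 3.

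Occludin had the smallest p. It was at 23.3, 21.6 and 23.3 CPM in control vehicle and 28.2, 33.9 and 38.96 CPM in mutant vehicle, without overlap, with 0.57 ± 0.15 (SE, edgeR adjusted p = 0.16). Basigin was at 312, 293 and 319 and 375, 419.7 and 486 CPM (0.47 ± 0.13, SE, edgeR adjusted p = 0.16). Slco1c1 was at 59.5, 59.5 and 62.3 and 85.5, 120.3 and 152 CPM (0.98 ± 0.33, SE). All mutant libraries were above all control libraries for these 3 genes. DESeq2 put them past the threshold, at adjusted p-values of 0.016, 0.018 and 0.031. An edgeR fit on these 2 groups alone did so too (0.042, 0.041 and 0.045). Of all genes, DESeq2 called 781 and that edgeR fit called 523. Over the 14 alternatives the adjusted p of the 3 genes ran from 0.016 to 0.99.

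Slco1c1 and Bsg tracked Ttr across the libraries, as the plot of 4 genes beside Ttr shows. The 6 libraries with the highest Ttr were also the 6 highest for Slco1c1, at 85.5 CPM or more against at most 62.3 CPM in the others. They were the 6 highest for Bsg too, at 372.9 CPM or more against at most 324.7 CPM. Of the 6 highest libraries for occludin, 4 were among them, and of those for Cldn5, 2. For Slco1a4, Slc2a1, Emcn and Cav1 the number was 5 each, with levels that overlapped those of the libraries with low Ttr. Within the 6 control and mutant vehicle libraries, high Ttr and genotype coincide. With the choroid plexus score as a covariate, the genotype values under vehicle were -0.11 for Slco1c1, 0.08 for Bsg, 0.03 for Slco1a4, -0.19 for Cldn5 and 0.40 for occludin. In that fit 0 members had an unadjusted p under 0.05, and the share of all genes is not given. Every mutant vehicle library had a higher score than every control vehicle library. Under vehicle the fit thus cannot tell genotype and choroid plexus RNA apart.

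**Figure D4:**
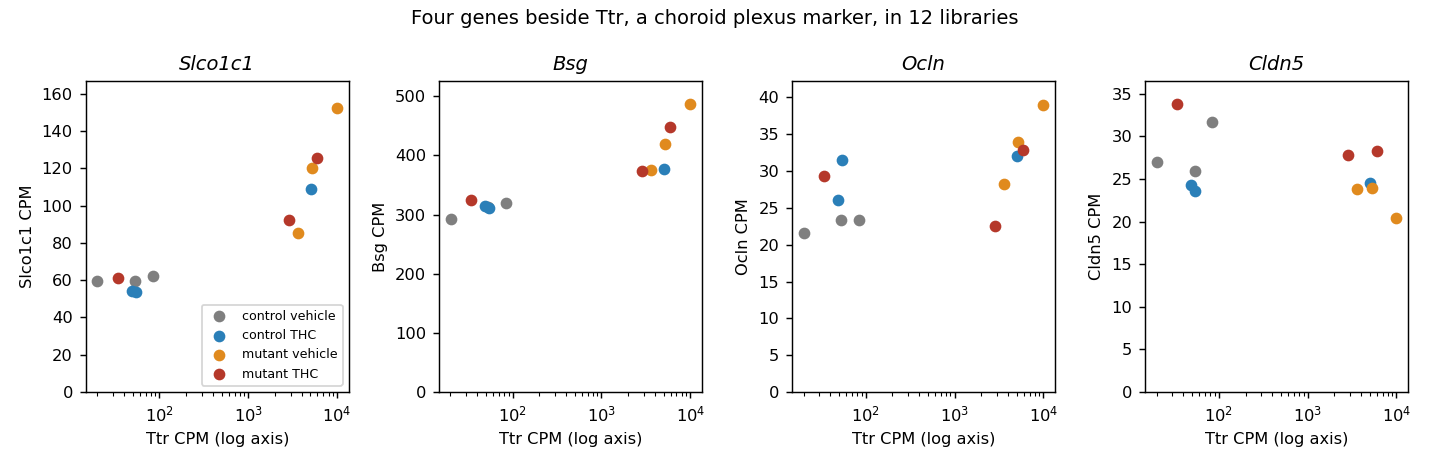
CPM of Slco1c1, Bsg, Ocln and Cldn5 (vertical, from 0) against CPM of the choroid plexus marker Ttr (horizontal, log axis) in the 12 libraries, coloured by group. Slco1c1 and Bsg split into 2 sets along with Ttr, while Ocln and Cldn5 overlap between the 2 sets.

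At an unadjusted p under 0.05, Egfl7, claudin-5 and Slc7a5 were the 3 members lower in mutants under vehicle. Egfl7, a secreted guide of vessel sprouting, was at 22.96, 23.6 and 24.6 CPM in control vehicle and 21.6, 19.1 and 17.1 CPM in mutant vehicle, without overlap (-0.30 ± 0.09, SE, edgeR adjusted p = 0.17). Claudin-5 was at 23.8, 23.9 and 20.4 CPM in the same mutant libraries against 25.9, 27.02 and 31.6 CPM in controls, again without overlap (-0.31 ± 0.10, SE). Slc7a5, the large amino acid transporter LAT1, was at -0.28 ± 0.12 (SE). In the other direction lay caveolin-1 (0.23 ± 0.08), the organic anion transporter gene Slco1a4 (0.29 ± 0.11) and Tns2 (0.32 ± 0.13). Slco1a4 was at 46.8, 48.3 and 49.4 CPM in control vehicle and 49.6, 60.8 and 65.98 CPM in mutant vehicle, without overlap. Vwf was at 0.31 ± 0.19 (SE), with its groups overlapping.

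Under THC the genotype values of claudin-5, Tns2, Vwf and Klf2 had the opposite sign from those under vehicle, in a comparison that shares its libraries with both THC comparisons. These 4 were among the 6 members with the smallest p for the interaction. The interaction is the difference between the 2 genotype values, so these reversals largely restate it. Of the members, 33.3% were above 0 under vehicle and below under THC, and 23.1% the reverse. Over all genes tested the shares were 16.2% and 18.7%. The log2 fold change was above 0 for 14 of 39 members, beside 51.5% of all genes, with a median of -0.03. At an unadjusted p under 0.05 there were 5 members, 1 higher and 4 lower, where 8.98% of all genes were below that p (4.71% higher and 4.27% lower). The groups did not overlap for 4 members, where the share over all genes was 10.5% (4.83% higher and 5.7% lower). These were claudin-5, higher in mutants at 0.31 ± 0.10 (SE, edgeR adjusted p = 0.55), and Tns2 (-0.42 ± 0.13), Vwf (-0.59 ± 0.19) and Slc7a5 (-0.31 ± 0.12), lower in mutants. Klf2 was at -0.84 ± 0.29 (SE), and at -0.32 without control THC 1. The 5 members became 8 without mutant THC 1 or without mutant THC 2, and ranged from 4 to 8 with 1 library left out. The share of all genes in those fits is not given.

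Slc7a5 was the only member that was lower in every mutant library than in every control library under each treatment, as for 1.51% of all genes, or 2.48% in either direction. It was at 32.1, 34.3 and 40.3 CPM in control vehicle and 30.01, 31.6 and 26.001 CPM in mutant vehicle. Under THC it was at 33.1, 33.2 and 35.2 CPM in controls and 29.6, 30.1 and 22.1 CPM in mutants, with mutant THC 3 the lowest library of all. Averaged over treatments its log2 fold change was -0.30 ± 0.09 (SE, edgeR adjusted p = 0.16). By DESeq2, which called 785 of all genes, it was past the threshold at an adjusted p of 0.038 (0.038 to 1 over 19 alternatives). The value under THC was -0.18 without mutant THC 3. That under vehicle was -0.18 without control vehicle 3 and -0.21 without mutant vehicle 3. The lowest Slc7a5 under each treatment was in these 2 mutant libraries, mutant THC 3 and mutant vehicle 3, and the summed level of the striatal neuron markers was 4565 and 577 CPM in them, against 169.98 to 199 CPM in the other 10 libraries. Their part in the Slc7a5 values was not tested.

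In the average over treatments 6 members had an unadjusted p under 0.05, 4 higher and 2 lower, where 21.2% of all genes were below that p (12.2% higher and 9.01% lower). The log2 fold change was above 0 for 16 of 39, beside 50.7% of all genes. The higher ones were Bsg (0.33 ± 0.09), Slco1c1 (0.67 ± 0.23), Slco1a4 (0.19 ± 0.08) and occludin (0.24 ± 0.10), and Egfl7 (-0.21 ± 0.07) was lower beside Slc7a5 (SE). Bsg was at an edgeR adjusted p of 0.04 without mutant THC 2, the mutant library with low Ttr, where 942 of all genes passed (0.023 to 1 over 19 alternatives). The log2 fold change of Bsg was 0.08 with the choroid plexus score as a covariate, and 0 members then had an unadjusted p under 0.05. The share of all genes in that fit is not given.

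Several transporters and the pericyte genes differed little between groups. Mfsd2a, which carries omega-3 lysolipids across the barrier, was at 15.6, 16.4 and 16.2 CPM in control vehicle and 17.5, 15.6 and 15.7 CPM in control THC. In mutants it was at 14.7, 14.9 and 15.2 CPM under vehicle and 15.4, 13.6 and 15.8 CPM under THC. Mutant vehicle lay below control vehicle without overlap, by a small step (-0.11 ± 0.07, SE). Abcb1a, the P-glycoprotein efflux pump gene, was at 36.1, 34.98 and 37.5 CPM in control vehicle and 43.2, 37.01 and 39.6 CPM in control THC, and at 41.8, 34.6 and 34.2 and 39.96, 39.1 and 35.8 CPM in mutant vehicle and THC. Its groups overlapped in each of the 4 comparisons of 2 groups.

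Slc2a1 was at 61.7, 63.2 and 59.1 CPM in control vehicle and 72.9, 67.1 and 63.2 CPM in control THC, and at 61.7, 72.9 and 69.4 and 69.2, 60.6 and 69.6 CPM in mutant vehicle and THC. Its log2 fold changes were 0.14 ± 0.08 for THC in controls and -0.03 ± 0.08 in mutants (SE). The pericyte marker Rgs5, a regulator of G protein signalling, was at 50.03, 46.3 and 51.2 CPM in control vehicle and 47.8, 54.7 and 48.2 CPM in control THC. In mutants it was at 46.4, 51.9 and 48.8 CPM under vehicle and 54.5, 50.9 and 51.4 CPM under THC. Kcnj8 and Abcc9, which encode the 2 subunits of the pericyte potassium channel gated by ATP, were at -0.10 ± 0.17 and 0.04 ± 0.13 for THC in controls and 0.24 ± 0.17 and 0.15 ± 0.13 in mutants (SE). Kcnj8 was at 3.45, 3.68 and 4.14 CPM in control vehicle and 3.65, 4.23 and 2.61 CPM in control THC, and at 3.49, 3.59 and 3.75 and 3.79, 4.15 and 4.85 CPM in mutant vehicle and THC. Its mutant THC libraries were all above mutant vehicle, and under THC its genotype value was 0.29 ± 0.17 (SE), 0.12 without control THC 3, 0.18 without mutant THC 3 and 0.45 without control THC 2. None of the 3 pericyte genes had an unadjusted p under 0.05 in any of the 7 comparisons.

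Among the remaining transcription factors, the related factors Sox18 and Sox17, which specify endothelial identity, were at 0.43 ± 0.21 and 0.28 ± 0.17 for THC in mutants (SE). Erg, the ETS factor that maintains endothelial fate, ran from -0.16 to 0.13 over the 4 comparisons of 2 groups. Foxq1 and Lef1 had SEs of 0.26 and 0.33 at their low counts, and no comparison of theirs reached an unadjusted p under 0.05. The surface genes Esam, Icam2 and Emcn were at 0.22 ± 0.11, 0.23 ± 0.16 and -0.17 ± 0.20 for THC in mutants (SE). Tjp1 ran from -0.05 to 0.03 in the 4 comparisons of 2 groups, and Ly6c1 was at 0.01 ± 0.08 and 0.15 ± 0.08 for THC in controls and mutants.

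Other genes of the vessel wall, from lists that do not overlap the 39, gave 0 genes past the adjusted threshold in any list or comparison. Of 21 further endothelial identity genes, 3 were higher and 1 lower at an unadjusted p under 0.05 for THC in control mice, beside 3.55% and 3.45% of all genes, led by Ramp2, a partner of the adrenomedullin receptor (0.33 ± 0.11), and the transcription factor gene Foxc1 (0.73 ± 0.26, SE). In mutants 2 were higher and 1 lower, beside 2.53% and 3.2% of all genes, led by Adgrl4 (0.24 ± 0.07) and Clec14a (-0.42 ± 0.13, SE). Of 13 further barrier transporters, 11 had an interaction below 0, where 51.3% of all genes were above 0, led by the organic anion transporter gene Slc22a8, which choroid plexus also makes (-1.22 ± 0.37, SE). Of 13 further junction genes, 12 were above 0 for genotype under vehicle, beside 48.9% of all genes, with a median of 0.38, and Lsr, a protein of tricellular junctions, was at 0.44 ± 0.14 (SE). The summed level of these junction genes was 530.3 to 653.7 CPM in the 6 libraries with high Ttr and 451.8 to 475.5 CPM in the other 6, and Cgnl1, the paracingulin gene, was at 42.98 to 106.7 CPM against 16.8 to 23.1 CPM. The part of choroid plexus RNA in these values was not tested.

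The Wnt and Norrin pathway list held the receptor complex that brain endothelium uses to read Wnt7 ligands. Adgra2 (GPR124) was at 8.16, 7.92 and 8.99 CPM in control vehicle and 13.2, 11.4 and 14.2 CPM in control THC, and its partner Reck at 8.9, 9.56 and 8.53 and 10.9, 12.6 and 11.05 CPM. Both were free of overlap, at 0.63 ± 0.16 and 0.35 ± 0.09 (SE, edgeR adjusted p = 0.70 for each). In mutants Adgra2 was at 12.1, 8.43 and 8.83 and 9.19, 8.98 and 6.87 CPM, and the interactions were -0.86 ± 0.22 and -0.39 ± 0.12 (SE). The fibroblast and meningeal genes summed to 229 to 274 and 316 to 321 CPM in control vehicle and THC. In mutant vehicle and THC they summed to 382 to 471 and 219 to 389.9 CPM, and their part was not tested. Ndp, the gene of the ligand Norrin, was at 7.98, 7.58 and 7.6 and 6.66, 5.93 and 6.53 CPM in control vehicle and THC and at 8.74, 8.29 and 7.76 and 6.76, 5.97 and 5.73 CPM in mutant vehicle and THC. All THC libraries were below all vehicle libraries in both genotypes, with an average of -0.35 ± 0.07 (SE, edgeR adjusted p = 0.79). Of the 17 genes, 12 were above 0 for THC in control mice, beside 50.1% of all genes, and 13 were below 0 in mutants, where 47.5% of all genes were above 0.

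Of 18 VEGF, angiopoietin and Notch genes, 12 were below 0 for THC averaged over genotypes (median -0.10), where 49.2% of all genes were above 0. Vegfa, the main VEGF ligand, was at -0.28 ± 0.12 in controls, and Angpt2, the TIE2 antagonist ligand, at -0.59 ± 0.22 in mutants (SE). Of 10 venous, activated and fenestrated endothelium genes, 8 were tested, and all 8 were below 0 for THC in mutants (median -0.44) and for the interaction, where 47.5% and 51.3% of all genes were above 0. Their summed level was 96.8 to 110.7 CPM in mutant vehicle and 97.4, 59.3 and 70.8 CPM in mutant THC 1 to 3. The fibroblast and meningeal genes were at 382 to 471 CPM and at 389.9, 228 and 219 CPM in the same libraries, and their part was not tested. Icam1, an adhesion molecule of activated endothelium, was at 3.94, 3.59 and 3.27 CPM in mutant vehicle and 2.52, 2.53 and 2.56 CPM in mutant THC, without overlap (-0.50 ± 0.14, SE). Plvap, the diaphragm protein of fenestrated vessels, was at 2.67 to 4.04 CPM over the 12 libraries. The 8 arterial genes had a median of 0.10 for THC in controls, and the 6 smooth muscle genes 0.13, none at an unadjusted p under 0.05. Of 10 further pericyte genes, Anpep, an aminopeptidase also made by fibroblasts, was at 1.0003 ± 0.34 for THC in controls and -1.65 ± 0.48 for the interaction, and the list median was 0.04 in controls and -0.02 in mutants.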

How the data were processed

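The authors' deposited table holds expected counts in 23382 rows named by RefSeq transcripts, with no scaling. Per the submitters' processing notes the tools were RSEM 1.2.21, Bowtie2 2.2.2, FastQC, CASAVA 1.8.4 and edgeR 3.10.2, with the build mm10, while strand use was not given in these sources. A symbol was found for 23007 rows in RefSeq and for 133 more through GENCODE, 7 rows held several, and 235 rows without one held 0.727% of the counts. Column names matched the 12 samples with 0 left over.

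Expected counts were rounded, filtered with filterByExpr and scaled with TMM (factors 0.989 to 1.01). One edgeR 4.0.16 model (glmQLFit with robust estimation, R 4.3.3) of 4 group means with 8 residual degrees of freedom gave 7 comparisons, adjusted by Benjamini-Hochberg over 15802 genes at 0.05. CPM use the TMM-scaled totals and TPM the mean length of a row's transcripts. The code was tested on simulated data. Counting precision follows from the totals of 33165903 to 41389957 per library.

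The members and the gene lists were chosen with earlier results of these data known, so no list was tested. Library values are given for the 6 members with the smallest p in each comparison of 2 groups and in the interaction, and for 8 fixed members; each related list names at most the 2 genes with the smallest p in a comparison. Alternatives were other size factors, no filter, DESeq2 1.42.0, limma 3.58.1 (voom), a choroid plexus covariate (mean log2 CPM of 14 marker genes, prior count 2), only the 2 groups compared, each library left out, and, chosen after seeing the data, control THC 2 and mutant THC 3 left out together.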

Additional observations from a re-analysis of the deposited data

How the results depend on the processing

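No paired analysis was possible because the labels' numbers do not recur between groups. Over 20 alternative settings, 2599 fold changes of 23 named members were recomputed: 2513 moved by less than 1 SE, 133 changed sign and 14 passed the threshold, while none of the main values did. The number of members past the threshold was 0 in each comparison, and under the DESeq2 test it was 3 for THC in control mice, 3 for genotype under vehicle, 1 for the interaction and 3 for genotype averaged over treatments. Over all genes DESeq2 called 12 for THC in control mice, 3 for THC in mutants, 781 for genotype under vehicle, 7 under THC, 34 for the interaction, 3 for THC averaged and 785 for genotype averaged. The edgeR counts were 0, 0, 1, 1, 0, 0 and 1. Fitting only the 2 groups compared gave 523 genes and 3 members for genotype under vehicle and 0 genes under THC, and limma-voom gave 0 genes for both. With the choroid plexus covariate the members at an unadjusted p under 0.05 numbered 7 for THC in control mice, 0 for genotype under vehicle and 0 for genotype averaged, with 0 genes past the threshold under vehicle; the member median was 0.0414 for THC in control mice and 0.00046 for the interaction. Without control THC 2 and mutant THC 3, 1 gene passed for THC in control mice, 0 for genotype under vehicle, 0 under THC and 1 for THC averaged, and the interaction median was 0.0224. The cause of these differences was not tested.

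Leaving out 1 library at a time, the members at an unadjusted p under 0.05 ranged from 6 to 10 for THC in control mice, 5 to 11 for THC in mutants, 5 to 10 for genotype under vehicle, 4 to 8 under THC, 6 to 9 for the interaction, 10 to 14 for THC averaged and 4 to 9 for genotype averaged. The share of all genes at that p in these fits and in the alternatives above is not given, so these counts are not a result about the members. The genes past the threshold ranged from 0 to 3 for THC in mutants, 0 to 2 for genotype under vehicle, 0 to 1 under THC, 0 to 10 for the interaction (10 without mutant THC 1) and 1 to 942 for genotype averaged (942 without mutant THC 2), and were 0 throughout for THC in control mice and THC averaged. Members past it ranged from 0 to 1 for genotype averaged and were 0 in the other comparisons. Low counts limit Lef1, Foxq1, Sox17 and Icam2, which lie at 1 to 3 CPM in these libraries.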
